A study of Mus musculus with 20 samples.

Results

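The enzymes that turn squalene into cholesterol were followed in mouse liver across feeding state and Plin2 genotype. The set was fixed by pathway position and not by any measured value: Sqle, Lss, Cyp51, Tm7sf2, Msmo1, Nsdhl, Hsd17b7, Sc5d and Dhcr7, 9 genes of the 55487 in the count table, each with 1 row in the counts and 1 in the deposited TPM values (TPM, abundance per length of transcript). RNA came from liver tissue of female C57BL/6N mice, 15 weeks old. Of the 20 libraries, 5 were from Plin2+/+ mice fed chow and 5 from Plin2+/+ mice fasted for 24 h. The other 10 carry a label for feeding state alone, 5 fed chow and 5 fasted for 24 h. They were read as Plin2-/- by elimination, because the study's design text names no other genotype, and are called Plin2-null here. PLIN2 (perilipin 2) coats lipid droplets in the cytosol of hepatocytes; the labels do not say how the allele was made or in which cells it acts.

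Cholesterol synthesis runs in the endoplasmic reticulum. SQLE, squalene monooxygenase, puts an oxygen on squalene and is one of the rate-limiting enzymes of the pathway; LSS folds the product into lanosterol, the first sterol. CYP51, TM7SF2, MSMO1, NSDHL and HSD17B7 then strip methyl groups from lanosterol and reduce it, and SC5D and DHCR7 act near the end. In liver, the genes of this pathway are classical targets of the transcription factor SREBP-2, which the INSIG proteins hold back in the membrane when sterols are plentiful; NF-Y and SP1 are its known partners on promoters.

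The upstream sequences of the members are shown because 8 of the 9 were called lower on fasting in each genotype, Hsd17b7 being the exception. RefSeq's promoter table (GRCm38.p6) held 8 of the 9 members; Sqle was not among them. The 250 bases before the start were searched on both strands for 4 exact strings. CCAAT, the NF-Y string, was found in 8 of 8 members, against 37.5% of the 27025 genes in the table; in Dhcr7 it stood only before the last of 3 starts. GGGCGG, an SP1-like string, was in 8 of 8, against 35.4% of genes. CACGTG, an E-box, was in 3 of 8 (Hsd17b7, Sc5d and the middle start of Dhcr7), against 6.86% of genes. TCACNCCAC, one spelling of a sterol regulatory element, was in 0 of 8, against 1.23% of genes. Of the genes from acetyl-CoA to squalene, 7 were in the promoter table. Among these 7, CCAAT was in 6, GGGCGG in 5, CACGTG in 0 and TCACNCCAC in 1, so CCAAT and GGGCGG are not particular to the members. TCACNCCAC ends in the letters CAC, with which CACGTG begins, so these strings can overlap. A match is a description, and its lack says only that these letters are not in this window. The stretches below are from Nsdhl and Sc5d, which fell on fasting, and from Hsd17b7, whose change did not pass the test; capitals mark CCAAT on either strand (as CCAAT or ATTGG) and CACGTG. Nsdhl is read at chrX:72918271-72918520, plus strand; Sc5d at chr9:42264301-42264550, minus strand; Hsd17b7 at chr1:169969242-169969455, minus strand, without the 36 bases nearest the start, which lie inside the GENCODE M21 gene.
Nsdhl: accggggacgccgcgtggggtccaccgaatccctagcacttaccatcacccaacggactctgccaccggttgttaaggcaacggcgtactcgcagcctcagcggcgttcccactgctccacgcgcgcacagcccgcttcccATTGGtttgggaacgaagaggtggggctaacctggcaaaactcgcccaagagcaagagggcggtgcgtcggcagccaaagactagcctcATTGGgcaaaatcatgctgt
Sc5d: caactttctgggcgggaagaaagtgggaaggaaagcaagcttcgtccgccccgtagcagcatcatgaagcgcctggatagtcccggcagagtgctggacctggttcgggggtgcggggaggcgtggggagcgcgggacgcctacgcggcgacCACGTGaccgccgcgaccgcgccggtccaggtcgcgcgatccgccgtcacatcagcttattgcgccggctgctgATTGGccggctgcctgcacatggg
Hsd17b7: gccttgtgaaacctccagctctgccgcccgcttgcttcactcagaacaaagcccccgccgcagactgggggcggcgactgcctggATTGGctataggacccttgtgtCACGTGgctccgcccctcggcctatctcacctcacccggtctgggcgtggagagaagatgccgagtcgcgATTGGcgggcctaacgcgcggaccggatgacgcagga
Nsdhl held 2 CCAAT matches, the nearer one 20 bases before its start, and no E-box. Sc5d held 1 CCAAT match 24 bases before its start and an E-box 98 bases before it. Hsd17b7 held 3 CCAAT matches, 165, 73 and 12 bases before its start, of which the stretch shows 2, and an E-box 143 bases before it. Hsd17b7 and Sc5d thus carried the same 3 of the 4 strings.

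Libraries held 25506471 to 65579038 counts. In edgeR's quasi-likelihood test, 16312 genes were tested in each comparison with Benjamini-Hochberg adjustment over all of them, and a call means an adjusted p under 0.05. Plin2 itself checked the labels: it had 196 to 319 CPM (each count relative to its library's total, scaled by TMM) in Plin2+/+ fed and 15.3 to 32.1 in Plin2-null fed livers, and 1092 to 1696 against 75.1 to 130.4 after fasting, with no overlap in either state. Of 6 hepatocyte markers, 5 had a row, Alb among them, and together they held 77500 to 148700 CPM in every library. Since no label ties a library to an animal, litter or batch, the p-values speak of spread among these libraries, part of which may be technical.

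In fed Plin2+/+ livers the members spanned a wide range of levels per length. Sc5d, the sterol desaturase, stood highest at 451 ± 88.7 TPM (SD, n = 5, as for all levels here), above every library's value for any other member. Cyp51 followed at 99.9 ± 29.3, Msmo1 at 79.5 ± 29.0 and Nsdhl at 77.4 ± 22.1 TPM. Dhcr7 (46.3 ± 14.8), Hsd17b7 (44.2 ± 15.1), Tm7sf2 (43.8 ± 5.81) and Sqle (41.1 ± 12.1) lay close together, and Lss, lanosterol synthase, was lowest at 24.6 ± 10.0 TPM. Apart from Sc5d and Cyp51, each pair of neighbours in this order overlapped. Plin2-null fed livers gave the same order except that Sqle and Tm7sf2, at 48.2 ± 16.7 and 48.0 ± 10.2 TPM, changed places within their overlap.

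**Figure D1:**
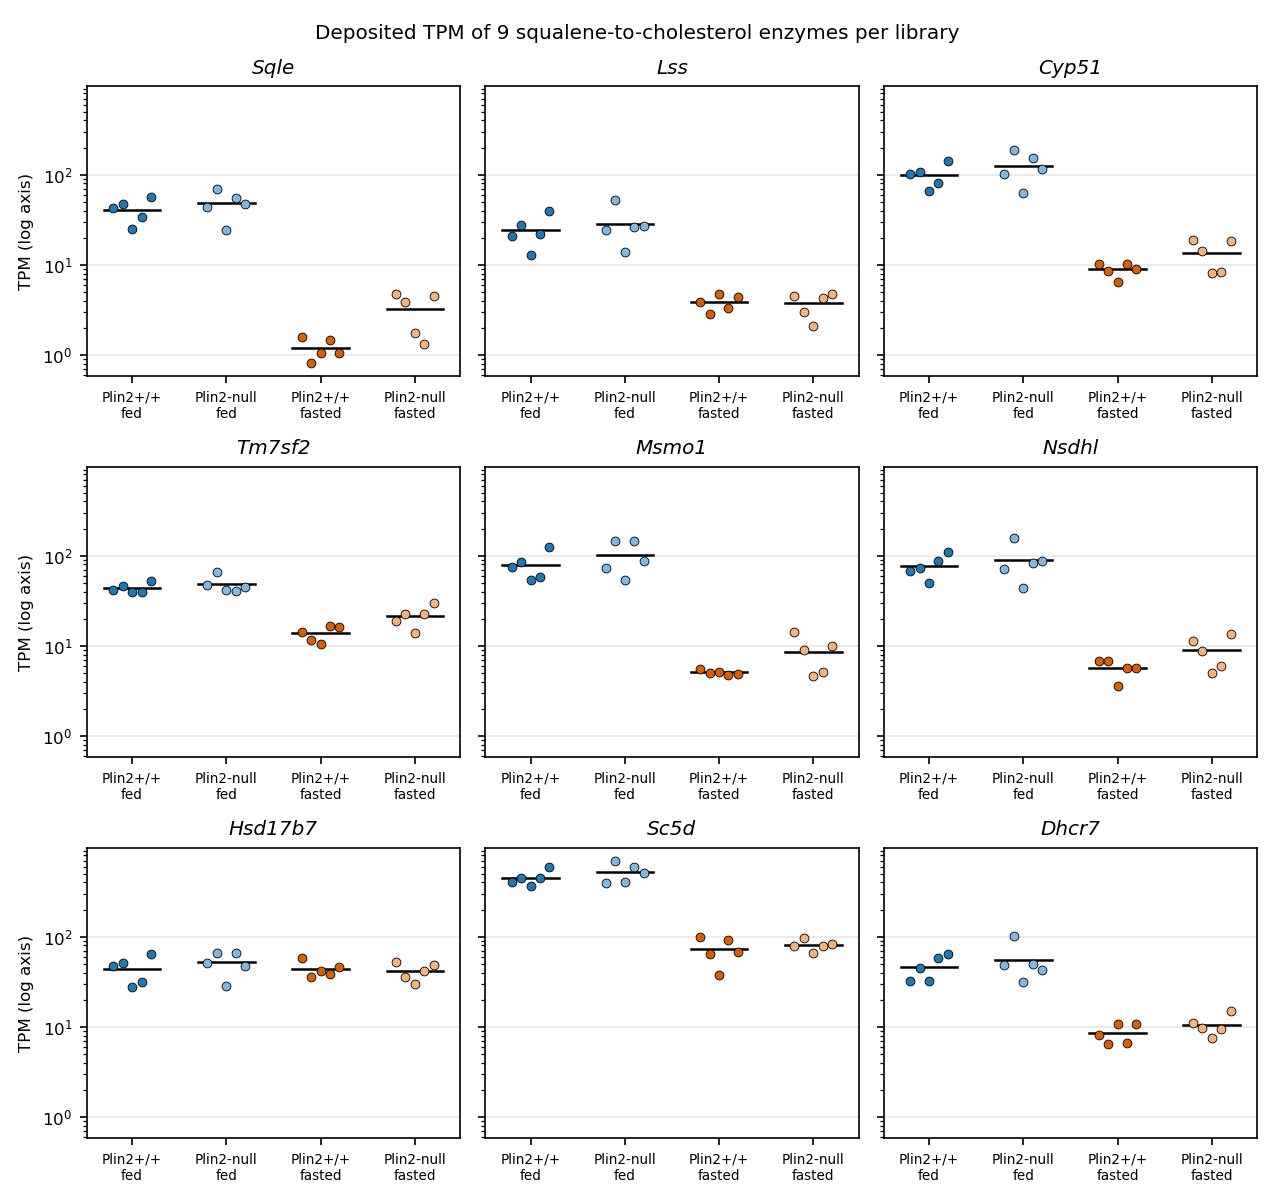
Deposited TPM (log axis) of each of the 9 enzymes in each of the 20 libraries, by group; points are libraries in replicate order and bars are group means. The fasted libraries lie below the fed ones for 8 enzymes, and the 4 groups of Hsd17b7 overlap.

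In fasted Plin2+/+ mice 8 of the 9 members were lower than in fed ones, against 21.7% of all genes tested that were called lower. In 8 of 9 the fasted and fed libraries did not overlap in CPM, against 13.5% of genes that were lower without overlap, and 7 of 9 were called with a fall of at least 2 on the log2 scale, against 2.70% of genes. The median log2 fold change was -2.52 over the 9 members and -0.01 over all genes tested. Hsd17b7 was the member without a call. In liver tissue, fewer cells of a type and less RNA per cell cannot be told apart.

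Sqle (ENSMUSG00000022351, chromosome 15 from 59315077 to 59331192, plus strand; positions here are GENCODE M21, GRCm38, where all 9 are protein coding) had the lowest log2 fold change of the members. Its TPM in the 5 Plin2+/+ fed livers was 43.2, 46.8, 24.7, 34.3 and 56.3. In the 5 Plin2+/+ fasted livers it was 1.57, 0.811, 1.05, 1.46 and 1.06. Every fasted library thus lay far below the lowest fed one, and the fasted libraries held 85 to 139 Sqle counts against 2577 to 6592 in the fed. The log2 fold change was -4.97 ± 0.36 (SE; edgeR adjusted p = 5.84e-09), a 31.3-fold lower level; only 0.147% of genes tested had a lower log2 fold change.

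Lss (ENSMUSG00000033105, chromosome 10 from 76531588 to 76557138, plus strand), the cyclase that makes lanosterol, was at 20.7, 27.7, 12.9, 21.8 and 39.8 TPM in the fed Plin2+/+ livers. After fasting it was at 3.90, 2.85, 4.71, 3.33 and 4.44 TPM, with no overlap. The log2 fold change was -2.52 ± 0.29 (SE; edgeR adjusted p = 1.15e-06). An antisense gene, 4930483K19Rik, covers 3.53% of its exonic bases and held a mean of 4.20 counts against 2806 for Lss.

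Of the steps that trim lanosterol, Cyp51, Msmo1 and Nsdhl had lower log2 fold changes than Lss; differences between genes were not tested. Cyp51 (ENSMUSG00000001467, chromosome 5 from 4081145 to 4104746, minus strand), which removes the first methyl group from lanosterol, went from 65.9 to 143 TPM over fed libraries to 6.38 to 10.3 over fasted ones. Its log2 fold change was -3.33 ± 0.28, with a 10.1-fold lower level. The gene Akap9 on the opposite strand shares 3.76% of the exonic bases of Cyp51 and held a mean of 2049 counts against 4633. Msmo1 (ENSMUSG00000031604, chromosome 8 from 64718139 to 64733792, minus strand), the oxidase that opens removal of the other methyl groups, ranged from 53.7 to 126 TPM fed and only from 4.76 to 5.49 fasted. Its log2 fold change was -3.80 ± 0.32, 13.9-fold lower. Nsdhl (ENSMUSG00000031349, chromosome X from 72918557 to 72958514, plus strand), the dehydrogenase and decarboxylase of the same cycle, went from 50.4 to 109 TPM fed to 3.59 to 6.87 fasted, a log2 fold change of -3.59 ± 0.31. The 3 genes shared the pattern of no overlap between fed and fasted libraries, and each had an edgeR adjusted p of at most 3.56e-08. Stretches of about 200 bases in Msmo1 transcripts match transcripts of 10 other genes at 95% identity or more, so a few of its reads may be uncertain.

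Hsd17b7 (ENSMUSG00000026675, chromosome 1 from 169949535 to 169969241, minus strand) encodes the keto-reductase that closes each cycle of methyl removal, after MSMO1 and NSDHL. In fed Plin2+/+ livers it was at 46.9, 50.5, 27.4, 31.5 and 64.6 TPM. In fasted Plin2+/+ livers it was at 58.4, 36.1, 42.1, 38.3 and 45.7 TPM. The fasted values all lay inside the range of the fed ones. The log2 fold change was 0.15 ± 0.20 (SE; edgeR adjusted p = 0.572), with a 95% interval from -0.27 to 0.56, so a fall of the size estimated for any of the 8 called members lies outside it.

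Tm7sf2 (ENSMUSG00000024799, chromosome 19 from 6062821 to 6068373, minus strand) encodes a sterol reductase whose step LBR, a nuclear membrane protein, can also carry out. It was at 41.6, 45.9, 39.1, 39.5 and 53.0 TPM fed and at 14.2, 11.6, 10.6, 16.4 and 16.2 TPM fasted in Plin2+/+ livers. No values overlapped, and the log2 fold change was -1.52 ± 0.14 (SE; edgeR adjusted p = 2.49e-08), the smallest fall among the 8 that were called. Vps51 on the same strand shares 12.1% of the exonic bases of Tm7sf2 and held a mean of 251 counts against 2392.

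At the end of the pathway, Sc5d (ENSMUSG00000032018, chromosome 9 from 42251595 to 42264256, minus strand) went from 362 to 597 TPM fed to 37.8 to 99.6 TPM fasted. The log2 fold change was -2.50 ± 0.20 (edgeR adjusted p = 5.67e-09). Dhcr7 (ENSMUSG00000058454, chromosome 7 from 143823145 to 143848410, plus strand), the reductase of the last steps, went from 31.9 to 64.5 TPM fed to 6.45 to 10.7 TPM fasted. Its log2 fold change was -2.29 ± 0.26 (edgeR adjusted p = 1.07e-06).

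Fasting Plin2-null mice gave the same 8 calls, against 18.1% of all genes tested called lower; the same 8 also did not overlap, against 11.8%. Of the 9 members, 7 were called with a fall of at least 2 on the log2 scale, against 1.80% of genes, and the median log2 fold change was -2.67. Sqle was at 44.2, 69.9, 24.2, 55.7 and 47.1 TPM fed and at 4.68, 3.83, 1.74, 1.32 and 4.48 TPM fasted. Its log2 fold change of -3.62 ± 0.33 was again the lowest of the members (edgeR adjusted p = 1.31e-07). Msmo1 (-3.26 ± 0.31), Nsdhl (-3.03 ± 0.30) and Cyp51 (-2.90 ± 0.27) followed in the same order as in Plin2+/+ mice. Lss (-2.67 ± 0.29), Sc5d (-2.37 ± 0.20) and Dhcr7 (-2.08 ± 0.26) came next, all as log2 fold change ± SE.

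Tm7sf2 fell least again, with 47.5, 65.4, 41.1, 40.6 and 45.3 TPM fed and 18.8, 22.3, 13.9, 22.7 and 30.0 TPM fasted in Plin2-null livers. The log2 fold change was -0.88 ± 0.14 (SE; edgeR adjusted p = 3.28e-05), a 1.85-fold lower level. Hsd17b7 was at 51.2, 65.5, 28.6, 66.3 and 47.7 TPM fed and at 52.1, 35.3, 29.6, 41.6 and 48.4 TPM fasted. These groups overlapped, and its log2 fold change was -0.04 ± 0.20 (edgeR adjusted p = 0.899; 95% interval -0.45 to 0.38).

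Some markers of other liver cells also differed with feeding state. Summed over 5 cholangiocyte markers, 33.1 to 51.1 CPM in Plin2+/+ fed became 12.2 to 23.1 in fasted livers, and 29.9 to 48.1 became 17.0 to 25.6 in Plin2-null livers. Spp1 held most of this sum, with means of 35.4 CPM fed and 11.1 fasted in Plin2+/+ livers, where Epcam had 0.644 and 0.627. Of the 5, 0 had a log2 fold change above 0 in Plin2+/+ and 2 in Plin2-null mice. Kupffer cell markers, 7 in number, summed to 380 to 503 CPM fed and 203 to 366 fasted in Plin2+/+, and to 297 to 708 and 286 to 364 in Plin2-null livers. Of these 7, edgeR called 5 lower in Plin2+/+ and 4 in Plin2-null mice, and of the 5 cholangiocyte markers 3 and 1. Over all genes tested, 21.7% were called lower in Plin2+/+ and 18.1% in Plin2-null mice, and 20.9% and 18.0% higher. The 6 lymphocyte markers summed to 4.54 to 5.29 CPM fed and 1.68 to 3.02 fasted in Plin2+/+, and to 3.27 to 4.92 and 2.72 to 4.58 in Plin2-null livers. Of 5 pancreatic acinar markers, Cela1 carried most of a sum of 8.00 to 27.9 CPM fed and 2.74 to 5.92 fasted, and Prss2, Cpa1 and Pnlip held at most 1 count in any library. The 4 adipocyte markers, with Lep and Cfd at 0 in every library, summed to at most 0.214 CPM. Of the 6 lymphocyte markers, 4 were called lower in Plin2+/+ and 0 in Plin2-null mice, where 0 also had an unadjusted edgeR p under 0.05. As an interaction of genotype and feeding, edgeR called 0 of all genes tested. Among the 6 lymphocyte markers the smallest adjusted p there was 0.243, and 4 had an unadjusted p under 0.05, against 13.8% of all genes. Of 6 stellate cell markers, 4 were called lower in Plin2+/+ mice (Lrat, Reln, Colec11 and Col1a1) and 3 in Plin2-null mice (Lrat, Reln and Col1a1). Their sum, of which Dcn (not called) held the most, overlapped between fed and fasted libraries. Of 6 sinusoidal endothelial markers, Lyve1 and Pecam1 were called higher in both genotypes, Stab2 lower in both and Kdr lower in Plin2+/+ mice; their sum overlapped too. The part of these cells in the members' fall was not tested. The sum of the 5 hepatocyte markers overlapped between fed and fasted libraries in both genotypes. Alb held most of that sum, so its overlap says little of the others. Alb, Ahsg and Fgb were not called. Ttr was called lower, with log2 fold changes of -1.26 in Plin2+/+ and -0.92 in Plin2-null mice, and Apoa1 higher, with 0.989 and 1.198.

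The rest of the pathway was read from lists of genes. Since these lists hold genes known from earlier results of the same data, their counts are a description. Of 10 genes from acetyl-CoA to squalene, 9 were called lower on fasting in each genotype, with medians of -3.31 in Plin2+/+ and -2.86 in Plin2-null. Fdps, farnesyl diphosphate synthase, had the lowest log2 fold changes of the list, -5.94 ± 0.44 and -4.47 ± 0.39. It rested on few counts after fasting, 8 to 20 per library in Plin2+/+ and 15 to 64 in Plin2-null mice. Ggps1, which makes geranylgeranyl diphosphate on a side branch, was the gene without a call in either genotype (0.30, edgeR adjusted p = 0.0658, and -0.03, edgeR adjusted p = 0.888). Among the other enzymes after squalene, Ebp and Lbr were called lower in both genotypes, and Faxdc2 could not be matched to a row. Ebp, the sterol isomerase, had -0.81 ± 0.12 and -0.61 ± 0.12, and Lbr, the partner of TM7SF2 in its step, -0.65 ± 0.10 and -0.40 ± 0.10. Each was nearer to 0 than any called member in the same genotype, a difference that was not tested.

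**Figure D2:**
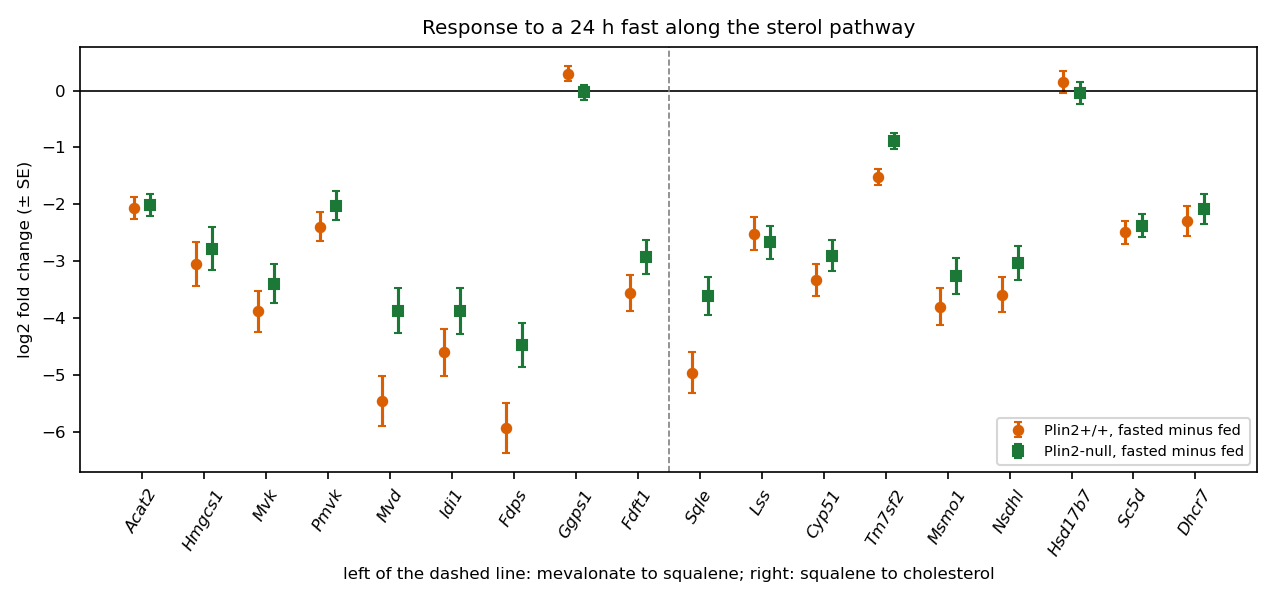
Log2 fold change of fasted against fed libraries (± SE, edgeR) in Plin2+/+ (circles) and Plin2-null mice (squares) for 9 genes up to squalene and the 9 enzymes after it. All but Ggps1 and Hsd17b7 lie below 0 in both genotypes, with Fdps, Mvd and Sqle among the lowest.

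Of 7 genes of SREBP control, 3 were called lower and 2 higher on fasting in each genotype, where 20.9% of all genes were called higher in Plin2+/+ and 18.0% in Plin2-null mice. Srebf2, which encodes SREBP-2, had a log2 fold change of -1.24 in Plin2+/+ and -1.02 in Plin2-null mice. Srebf1 had -4.70 ± 0.29 and -3.32 ± 0.27. The INSIG genes moved in opposite directions: Insig1, itself an SREBP target, had -3.74 ± 0.27 and -3.81 ± 0.27, whereas Insig2 had 2.69 ± 0.19 and 2.23 ± 0.18. Mbtps2, a protease that releases SREBP, was higher by 0.60 and 0.42, and Scap and Mbtps1 were not called.

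Of 6 electron donors and helpers of these enzymes, Por, the reductase that feeds electrons to CYP51 and SQLE, was called higher in both genotypes, by 2.39 ± 0.22 and 2.53 ± 0.22. Cyb5r3, the cytochrome b5 reductase on the route to the SC5D and MSMO1 oxidases, was called lower, at -2.08 ± 0.16 and -1.52 ± 0.16. Erg28 was also called lower in both, and Pgrmc1 and Sec14l2 in Plin2+/+ mice with log2 fold changes of -0.35 and -0.37. Cyb5a was called in neither. Of 5 genes of the ubiquitin machinery that degrades sterol enzymes, Marchf6, the ligase of SQLE, and Rnf139 were called higher in Plin2+/+ mice (0.37 and 0.56), and none was called in Plin2-null mice; unadjusted p was under 0.05 for 4 of the 5 there, as for 45.4% of all genes. Marchf6 and Rnf139 had 0.25 and 0.08 in Plin2-null mice. As an interaction of genotype and feeding, edgeR called 0 of the 6 helpers and 0 of the 5 ubiquitin genes (smallest adjusted p 0.291 and 0.255).

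With 8 members lower and Hsd17b7 without a call, the make-up of the 9 members' summed transcripts shifted. Pathway enzymes outside the 9 are not in this sum. Ebp, for 1, had 136 ± 16.3 TPM in Plin2+/+ fasted livers, above the means of all 9 members there. The summed TPM of the 9 members was 908 ± 216 in Plin2+/+ fed and 163.5 ± 33.4 in Plin2+/+ fasted livers, and 1061 ± 325 and 192 ± 35.1 in Plin2-null livers. Hsd17b7 made up 4.80 ± 0.86% of that sum in Plin2+/+ fed and 27.4 ± 4.79% in Plin2+/+ fasted livers. In Plin2-null livers its share was 4.91 ± 0.82% fed and 21.6 ± 2.72% fasted. Among the 9 members, its TPM thus ranked second after Sc5d in both fasted groups. It did not overlap with Tm7sf2, the next in order, in Plin2+/+ fasted livers. Sqle was last of the 9 in both fasted groups, at 1.19 ± 0.32 and 3.21 ± 1.57 TPM. It lay below every Lss value in Plin2+/+ fasted livers but overlapped Lss in Plin2-null fasted ones.

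**Figure D3:**
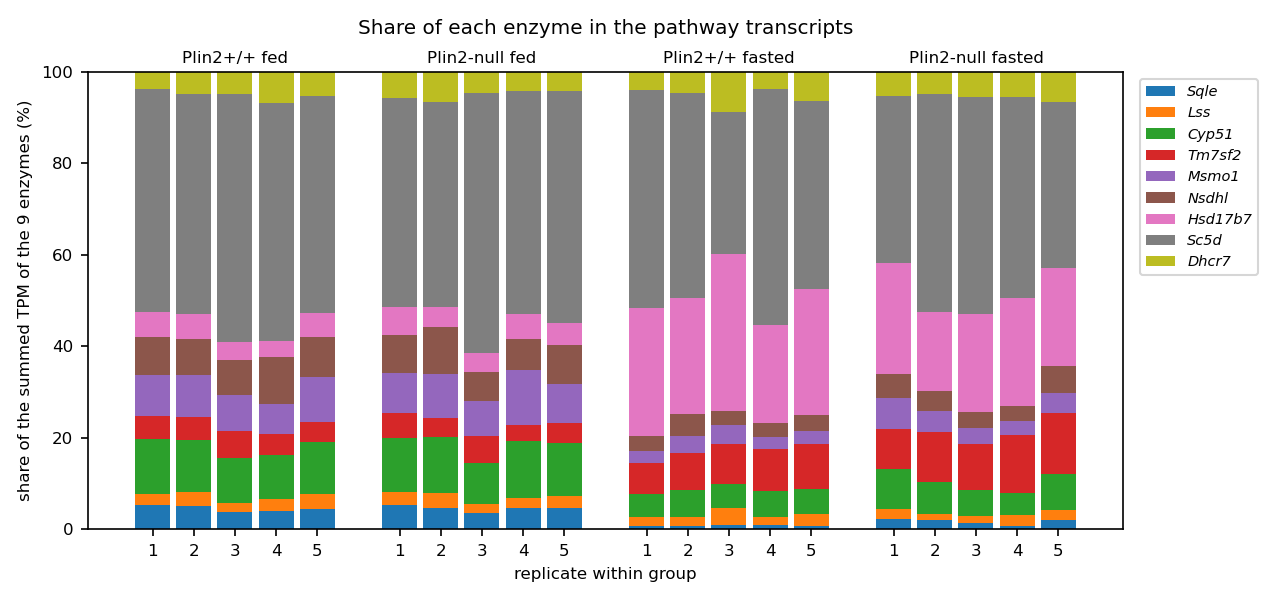
Share of each enzyme in the summed TPM of the 9 members, per library and group (stacked bars reach 100%). Hsd17b7 takes a mean of 4.80% and 4.91% in the fed groups and 27.4% and 21.6% in the fasted ones.

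In fed mice, Plin2 genotype gave 0 calls among the 9 members, against 0.0184% of all genes tested called in either direction; 0 members had an unadjusted edgeR p under 0.05, against 4.25% of all genes, and DESeq2 and limma voom also called 0. All 9 log2 differences (Plin2-null minus Plin2+/+) lay above 0, from 0.03 for Tm7sf2 to 0.24 for Msmo1, where 50.6% of all genes lay above 0. Without Plin2-null fed replicate 2, 6 of the 9 lay below 0 (Sqle, Lss, Tm7sf2, Nsdhl, Sc5d and Dhcr7), down to -0.19 for Nsdhl. The 95% interval for Sqle ran from -0.50 to 0.76, and differences inside it could not be told from 0 here.

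After fasting, Plin2-null livers held more Sqle and Tm7sf2 than Plin2+/+ livers, 2 of 9 members called higher, against 1.51% of all genes tested called higher. For Sqle, the fasted TPM values given above ran from 0.811 to 1.57 in Plin2+/+ and from 1.32 to 4.68 in Plin2-null livers, and 4 of the 5 Plin2-null values lay above all Plin2+/+ ones. The log2 difference was 1.48 ± 0.33 (SE; edgeR adjusted p = 0.027), a 2.80-fold higher level. For Tm7sf2 the log2 difference was 0.67 ± 0.14 (SE; edgeR adjusted p = 0.0182), 1.59-fold. Its CPM did not overlap between the genotypes (21.3 to 32.4 against 34.4 to 50.6), as in 1.87% of all genes on that side, although its TPM did overlap (10.6 to 16.4 against 13.9 to 30.0).

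Neither call held in every setting. Sqle had an adjusted p of 0.062 with limma voom, and Tm7sf2 one of 0.0514 with library size alone as the scaling. Leaving out Plin2+/+ fasted replicate 1, 2 or 3 or Plin2-null fasted replicate 5 brought the members called to 0, and leaving out Plin2-null fasted replicate 1 left Tm7sf2 alone. Over these single omissions the edgeR adjusted p ran from 0.00229 to 0.0903 for Sqle and from 0.0112 to 0.0679 for Tm7sf2. Plin2+/+ fasted replicates 1 and 2 also stood apart in how their log2 counts followed GC content, with -0.74 and -0.71 between high-GC and low-GC genes against -0.21 to 0.55 in the other 8 fasted libraries. With that trend removed, a setting added after seeing the data, the log2 difference of Tm7sf2 was 0.44 ± 0.12 (edgeR adjusted p = 0.0456), over 1.5 times smaller, and that of Sqle 1.53 ± 0.34 (edgeR adjusted p = 0.0245).

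Msmo1 (0.78 ± 0.29), Nsdhl (0.65 ± 0.29) and Cyp51 (0.64 ± 0.26) had unadjusted p under 0.05 with adjusted p of 0.121, 0.176 and 0.145 (edgeR). With Sqle and Tm7sf2 these made 5 of 9 members at an unadjusted p under 0.05, against 24.3% of all genes. Dhcr7 (0.34), Sc5d (0.22), Lss (-0.03) and Hsd17b7 (-0.05) did not reach it. The median log2 difference was 0.64 over the 9 members and 0.02 over all genes. Of the genes up to squalene, 0 of 10 were called by edgeR, with 5 at an unadjusted p under 0.05; Srebf1 was called higher (1.28 ± 0.26, edgeR adjusted p = 0.0186) and Rnf139 lower (-0.46 ± 0.12, edgeR adjusted p = 0.0414), where 1.73% of all genes were called lower.

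Whether the genotype difference itself depended on feeding was tested as an interaction, fasted minus fed. EdgeR called 0 members and 0% of all genes, DESeq2 and limma voom also called 0 members, and 2 members had an unadjusted p under 0.05, against 13.8% of all genes. For Sqle the interaction was 1.35 ± 0.44 (unadjusted p = 0.00665, edgeR adjusted p = 0.253). For Tm7sf2 it was 0.64 ± 0.19 (unadjusted p = 0.00349, edgeR adjusted p = 0.241). The other 7 members ranged from -0.18 for Hsd17b7 to 0.56 for Nsdhl. That genotype passed the test in fasted and not in fed mice therefore does not show that the states differ.

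**Figure D4:**
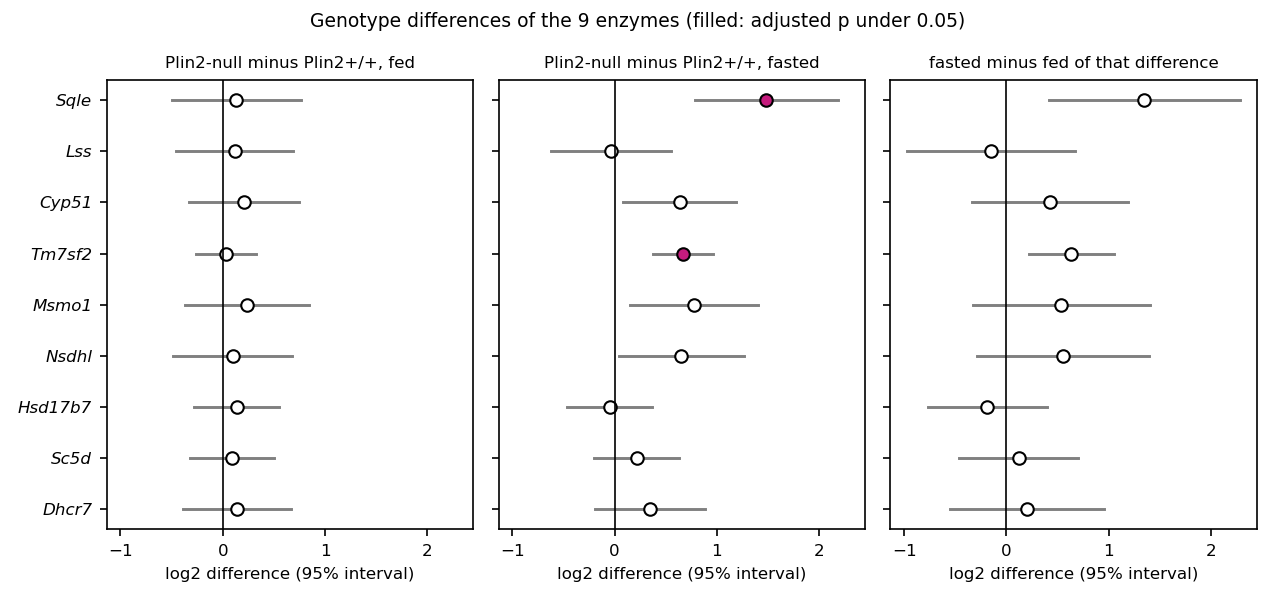
Log2 difference between Plin2-null and Plin2+/+ livers for each enzyme in fed mice, in fasted mice and as the fasted minus fed interaction; lines are 95% intervals and filled points are called (edgeR adjusted p under 0.05). Filled points are Sqle and Tm7sf2 in fasted mice, and no interaction point is filled.

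Libraries of the same group also differed in the members together. Across the 10 fed libraries, taken as deviations of log2 CPM from their group mean, the median Pearson r over the 36 pairs of members was 0.83 (0.51 to 0.98; median Spearman rho 0.78). In each fed group 1 library stood high: Plin2+/+ fed replicate 5 was highest of its group for 9 of 9 members, and Plin2-null fed replicate 2 for 7 of 9. Without these 2 the median r was 0.615, from -0.24 to 0.97. Hsd17b7 moved with the others in fed libraries, with r of 0.85 (rho 0.87) against the mean of the other 8, a value that 0.178% of other genes reached. Tm7sf2 followed less closely, at 0.68, and at 0.08 without those 2 libraries. These are descriptions over libraries that share depth and scaling, and carry no p.

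In the 10 fasted libraries the median r was 0.36 (-0.81 to 0.91; median rho 0.35), and 0.132 without Plin2-null fasted replicates 4 and 1. Sqle (0.92) and Cyp51 (0.97) had the highest r with the mean of the other 8, and Lss (0.03), Sc5d (0.18) and Dhcr7 (0.23) the lowest. This order hung on the same 2 libraries. Without them Cyp51 (0.88) stayed highest, Tm7sf2 (0.72) passed Sqle (0.69), Hsd17b7 had -0.23 and Dhcr7 was lowest at -0.32. Plin2-null fasted replicate 4 was lowest of its group for 7 of 9 members, and replicate 1 highest for 5 of 9.

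**Figure D5:**
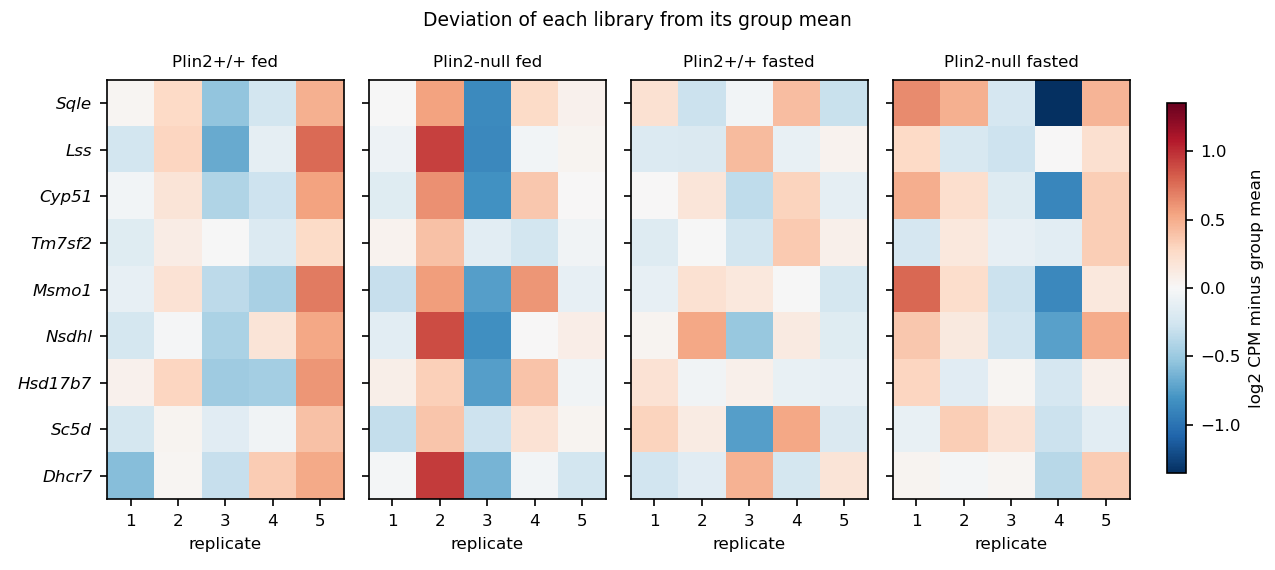
Deviation of log2 CPM from the group mean for each enzyme (rows) in each library (columns), by group; red is above and blue below the group mean. In Plin2+/+ fed, replicate 5 is above the mean for all 9 enzymes, and in Plin2-null fasted, replicate 4 is lowest for 7 of 9.

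The genes whose log2 CPM was most like the mean of the standardised members over all 20 libraries, among 9173 with a mean of at least 5 CPM, were Hmgcs1 (Pearson r = 0.99), Fdft1 (0.99), Idi1 (0.99), Gm3571 (0.98) and Fdps (0.98). Fed and fasted libraries are pooled in these r values, so the change on fasting is part of them. On deviations from the group means the order was Hmgcs1 (0.94), Gm3571 (0.93), Fdft1 (0.91), Idi1 (0.87) and Rdh11 (0.86). Hmgcs1, Idi1, Fdps and Fdft1 belong to the steps before squalene. Gm3571 is a processed pseudogene on chromosome 10, 98.9% identical to Fdps over 1062 bases, so its reads are uncertain and some of those of Fdps may be too. Fdft1 matches Ctsb at 100% identity over 774 bases. Idi1 matches Gm13502 at 100% over 684 bases and Gm35570 at 97.7% over 681 bases. Some reads of Fdft1 and Idi1 may thus be uncertain as well.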

How the data were processed

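The authors deposited raw counts for each Ensembl mouse gene, and separately TPM values. Liver total RNA went through a column kit and a strand-specific mRNA library preparation, per the labels' protocols. HISAT2 1.2.1 and featureCounts 1.4.6-p1 are listed in the submitters' processing notes, with genome build GRCh38, although the identifiers are mouse; the annotation and the strand option of counting were not given in the sources used. The deposited TPM columns, whose header stands 1 cell to the left, were checked against the counts, and all 20 matched their own library. No pair of libraries within a group agreed within sampling noise (smallest chi-square per degree of freedom 45.3 over 40 pairs). Of 55487 count rows, 55141 had a symbol in the reference table; 269 of 55493 TPM rows had none.

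Counts were fitted in R 4.3.3 with edgeR 4.0.16 (filterByExpr, TMM, glmQLFit robust, 1 coefficient per group, 20 libraries) and tested with glmQLFTest. SE is the size of the log2 fold change divided by the root of F, and 95% intervals use it. DESeq2 1.42.0, limma 3.58.1 (voom and log2 TPM), other scalings and filters, a fit of 2 groups at a time and the omission of each library in turn were alternatives; removal of GC trends was added after seeing the data. The members and lists were chosen with earlier results of these data known. Named genes were the members, Plin2, the pathway lists, and the 5 genes most like the members by each of 2 measures. Some genes of these lists are not reported here. The fits were tested on simulated data. Of simulated 1.5-fold changes, 33.8% were recovered for genotype in fed mice, 23.9% in fasted mice and 4.48% in the interaction. At 4-fold, recovery was 100%, 95.5% and 81.8%. Small differences can thus be missed, most of all in the interaction. Python 3.11.15 with matplotlib 3.10.9 drew the figures. Promoters came from RefSeq (GRCm38.p6), positions from GENCODE M21.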

Additional observations from a re-analysis of the deposited data

Results flagged for a closer look

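Dhcr7 in the fed Plin2-null group held 1 library far from the rest: replicate 2 had 202 CPM, whereas the other 4 libraries ranged from 67.7 to 103 CPM. The gap to the nearest of them was 0.74 of the group's whole range, above Dixon's value of 0.71 for 5 samples. Such a rule marks about 1 in 20 groups by chance, and this was 1 of 36 groups tested. The same library was the highest of its group for 7 of the 9 members.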

How the results depend on the processing

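Under every alternative tried, 8 members were called lower on fasting in each genotype, 0 were called between genotypes in fed mice and 0 in the interaction. The 2 members called between genotypes in fasted mice became 1 with limma voom, with library size alone, with no filter on low counts (where Sqle had an adjusted p of 0.0528) and in a fit of the compared groups alone (0.0557); they became 0 with limma on log2(TPM + 1) and 0 with limma on log2(TPM + 0.1), and leaving out single libraries gave 0 to 2. The cause was not tested. All genes called in that comparison, 528 with edgeR, numbered 1421 with DESeq2, 108 with library size alone, 319 with no filter, 104 with the compared groups alone, 17 and 14 with the log2(TPM + 1) and log2(TPM + 0.1) fits, and 13 to 1794 when leaving out single libraries. DESeq2 called 65 genes in the interaction, where edgeR called 0 of 16312 and 2250 at an unadjusted p under 0.05. Median r between members moved from 0.833 to 0.615 in fed and from 0.362 to 0.132 in fasted libraries without the 2 farthest libraries. No paired analysis was possible because each title carries its own number and no replicate number is shared between groups. Among the members, depth limits Sqle most, with 85 to 139 counts in Plin2+/+ fasted libraries.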
